A study of Mus musculus with 2 samples.

Results

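Accessibility at 39 genes for chromatin regulators was described in basal cells of the mouse skin epidermis: subunits of the Polycomb complexes, enzymes that write or remove DNA methylation, histone-modifying enzymes and ATP-dependent remodellers. All 39 symbols were found among protein-coding genes of the RefSeq annotation of GRCm38.p6, Setd8 under its later symbol Kmt5a. A peak was taken as a peak of a gene where it overlapped the gene, or where the gene was the nearest protein-coding gene within 50 kb. By that rule 243 of the 84594 distinct deposited peaks belonged to these genes. Of these, 224 passed a filter at the 10th percentile of mean signal, as did 76147 peaks in all. The other 19 had mean signals of 7.11 to 13.6 normalized reads, below the limit of 13.96, and relative to control 6 of them reached 2-fold higher and 3 reached 2-fold lower in ablation.

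There were 2 ATAC-seq libraries, which map open DNA by the insertions of a transposase. The ablation library came from epidermis with the genotype Basal lineage ablation, the control library from WT epidermis. Both came from 50000 cells sorted as α6High/CD34-/Lrig1-/YFP+/GFP+/RFP+ after K14 tracing, in which the promoter of keratin 14, active in basal keratinocytes, drives the label. The sources used here do not give the age or number of the mice, whether animals were pooled or how cells were ablated. Each group had a single library (n = 1), so the spread between animals is unknown, no difference was tested, and every interval below is a 95% interval for counting error only. In cells measured in bulk, fewer cells with an open site and less opening per cell cannot be told apart.

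The ablation library held 12463908 reads in nuclear peaks and a further 31.2% of all reads in peaks on the mitochondrial genome, against 17056996 reads and 7.31% in the control library. Medians were 62 reads per nuclear peak in ablation and 76 in control. Summed signal per gene over the 6 basal keratinocyte markers (Krt5, Krt14, Trp63, Itga6, Itgb4 and Col17a1) was 2253 normalized reads in ablation and 2375 in control. The 4 immune markers had 107 in ablation and 86.6 in control, and the 4 suprabasal markers 554 in ablation and 642 in control. Signal per marker was 148 in ablation and 144 in control for fibroblasts, 696 and 691 in the same order for endothelium, and 713 and 797 for melanocytes. Of these markers, Col1a2, Cdh5 and Tyr had no tested peak. Each of these sums was still divided by all 4 markers, so the value is lower than over the measured markers alone. The part of the differences between the libraries in the results below was not tested.

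Polycomb repressive complex 2 (PRC2) methylates histone H3 at genes kept silent. PRC1 binds the methylated histone H3 through its CBX subunits and ubiquitinates histone H2A. DNA methyltransferases copy or set methylation of cytosine, TET enzymes oxidise it, and remodellers of the SWI/SNF and CHD families move or evict nucleosomes. In the epidermis, Polycomb, Dnmt1 with Uhrf1, Satb1 and Mi-2β (Chd4) are known to act in the balance between basal progenitors and differentiation, and Kdm6b in the opening of differentiation genes.

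Promoter windows, the 250 bases before a RefSeq start in GRCm38.p6, were at hand for 34 of the 39 genes (48 windows), all but Chd7, Hdac1, Hdac3, Kdm6b and Cbx2. Of the 48 windows, 43 overlapped a tested peak and 35 lay inside one. The 4 windows below are those inside the start-site peaks with the lowest (Chd4 and Bmi1) and the highest (Dnmt1 and Arid1b) log2 ratios of ablation to control, among the strongest peak at a gene end or start of each gene. Each is written 5′ to 3′ on the strand of its gene, with the start just after its last base, and capitals mark matches to the motifs named below. The Chd4 window was chr6:125095731-125095980 on the plus strand, the Bmi1 window chr2:18676768-18677017 on the plus strand, the Dnmt1 window chr9:20952624-20952873 on the minus strand and the Arid1b window chr17:4994824-4995073 on the plus strand.
Chd4: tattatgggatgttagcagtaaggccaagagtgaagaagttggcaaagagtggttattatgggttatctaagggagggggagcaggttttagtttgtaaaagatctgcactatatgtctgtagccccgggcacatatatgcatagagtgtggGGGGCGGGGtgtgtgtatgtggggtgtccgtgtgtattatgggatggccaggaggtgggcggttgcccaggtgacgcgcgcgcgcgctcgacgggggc
Bmi1: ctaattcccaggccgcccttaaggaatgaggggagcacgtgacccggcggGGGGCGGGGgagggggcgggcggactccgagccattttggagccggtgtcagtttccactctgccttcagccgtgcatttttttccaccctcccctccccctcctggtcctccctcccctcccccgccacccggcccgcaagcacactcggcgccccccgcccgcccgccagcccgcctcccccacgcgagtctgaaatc
Dnmt1: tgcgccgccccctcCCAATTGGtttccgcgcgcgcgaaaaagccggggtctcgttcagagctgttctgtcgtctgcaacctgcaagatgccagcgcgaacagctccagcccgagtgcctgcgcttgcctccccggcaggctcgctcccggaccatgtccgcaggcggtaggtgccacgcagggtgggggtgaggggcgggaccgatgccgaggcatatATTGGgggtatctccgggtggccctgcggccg
Arid1b: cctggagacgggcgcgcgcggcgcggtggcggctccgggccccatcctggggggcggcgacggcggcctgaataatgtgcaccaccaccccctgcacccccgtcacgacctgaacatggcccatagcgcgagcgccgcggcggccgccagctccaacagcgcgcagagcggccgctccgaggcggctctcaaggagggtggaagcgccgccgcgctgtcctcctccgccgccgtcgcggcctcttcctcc
The windows held 12 CpG dinucleotides at Chd4, 21 at Bmi1, 26 at Dnmt1 and 37 at Arid1b. All 4 stood above the median of 6 over the 32851 windows of all genes, and the 48 windows of the regulators had a median of 22. Letters were searched on both strands. The SP1 motif GGGGCGGGG was in 22.9% of the 48 windows and in 10.4% of all windows, the CCAAT box CCAAT in 31.3% and 33.9%, the E2F motif TTTCCCGC in 4.17% and 0.895%, and the CREB motif TGACGTCA in 2.08% and 1.55%. The AP-1 motif TGANTCA, the ETS motif CCGGAAGT and the NRF1 motif GCGCATGCG were in none of the 48 windows, and in 6.75%, 2.88% and 1.45% of all windows. Bmi1 and Chd4 each held 1 SP1 match in the printed window. The Dnmt1 window held 3 matches to CCAAT, 2 of them overlapping on opposite strands as CCAATTGG, and the Arid1b window held no match.

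Accessibility of the chromatin regulators was close between ablation and control. As deposited, 30 of the 39 genes had less signal in ablation, beside 61.6% of all genes. Summed over the 224 tested peaks, the signal was 39450 normalized reads in ablation and 42953 in control, a ratio of 0.918 (0.907 to 0.930). By gene, the log2 ratio of ablation to control of the summed signal, with 1 added to each sum, ran from -0.38 at Bmi1 to 0.29 at Kmt2d. Of the 39 regulators 0 reached 2-fold in either direction, and of all 16272 genes with a tested peak 193 (1.19%) reached 2-fold higher and 68 (0.418%) reached 2-fold lower in ablation. The median of the 39 genes was -0.10, beside -0.07 over all genes, and 24 of the 39 lay below the median of all genes and 15 above it.

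Signs against 0 rested on the scaling. When signal was scaled to all reads in the table, those of the mitochondrial peaks too, the median of all genes shifted by -0.34 and all 39 regulators were below 0, against 30 of 39 as deposited. Scaled to reads in nuclear peaks, 18 of the 39 were above 0, against 9 as deposited. Peaks called higher, lower, above 0 or below 0 in what follows are as deposited, unless a scaling is named. On that scale 37096 of all 76147 tested peaks were above 0. Since signs depend on the scaling, the side of each gene is given relative to the median of all genes. Scaling by a total, or centring, moves all genes alike and cannot change a gene's side of that median. A loess correction of the ratio on signal can, and under it 6 of the 39 regulators changed side (Ezh2, Suz12, Rnf2, Cbx6, Uhrf1 and Kdm6b). The counting interval lay wholly above the median of all genes for Kmt2d, Ep300 and Cbx8, and wholly below it for Bmi1, Satb1, Jarid2, Setd8, Chd4, Kmt2c, Cbx2, Smarca2, Chd7 and Tet3. That makes 7.69% of the regulators above and 25.6% below, beside 20.5% and 21.1% of all genes. The sets are not matched for signal: the regulators had a median of 4 tested peaks per gene, beside 2 over all genes. Intervals narrow as reads rise, and the part of this in the shares was not tested. Under the loess correction Kmt2c, Smarca2 and Tet3 were no longer among those below and Tet2 was, and Dnmt3b and Kdm6b joined those above.

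**Figure D1:**
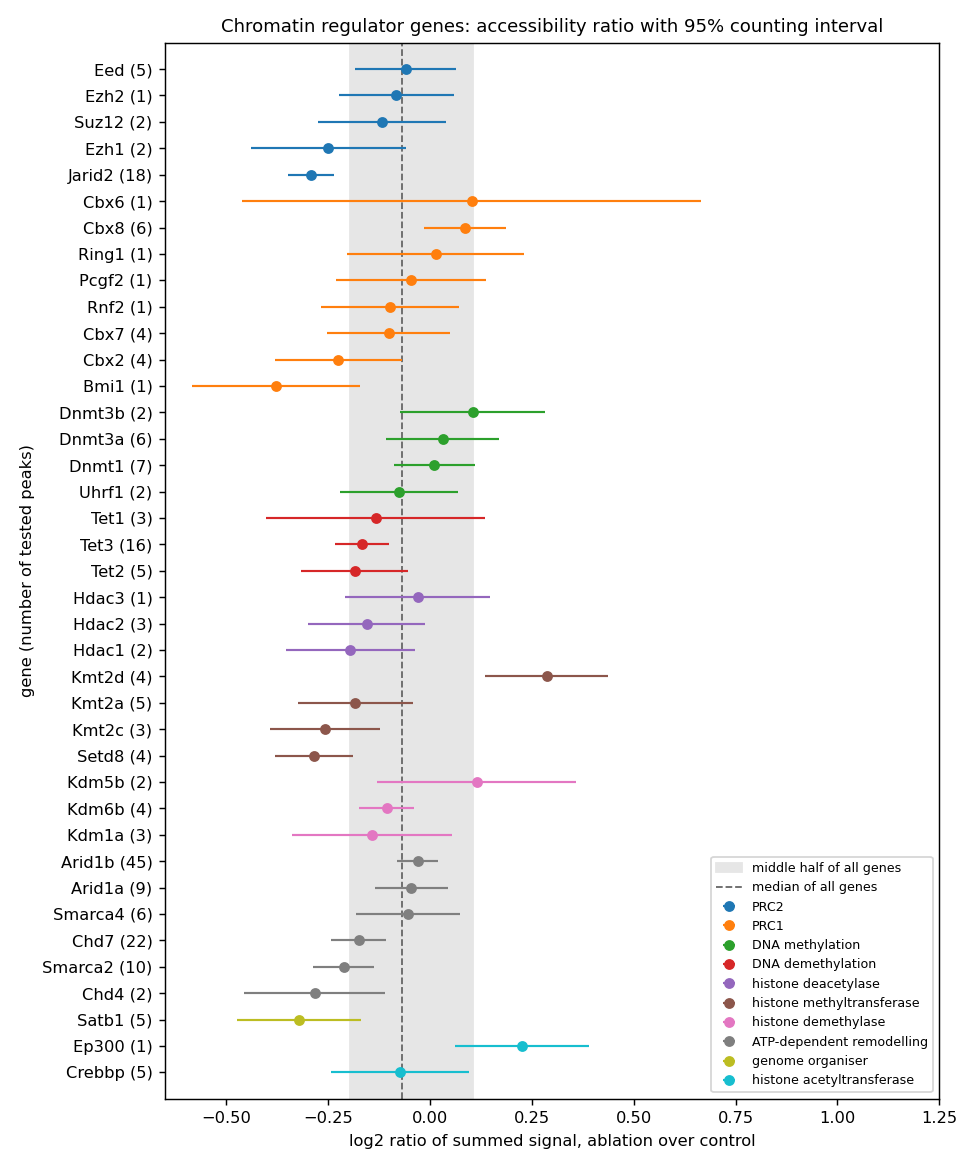
Log2 ratio of summed signal, ablation over control, for each of the 39 genes by role, with 95% counting intervals, the median of all genes (dashed) and their middle range from the 25th to the 75th percentile (grey, -0.20 to 0.11). Of the 39 genes 3 lie right of the grey band, with Kmt2d at 0.29 the farthest, and 9 left of it, with Bmi1 at -0.38 the farthest.

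In PRC2, all 5 subunit genes had lower signal in ablation than in control as deposited (3 of 5 when scaled to reads in nuclear peaks), and 4 of 5 lay below the median of all genes, although under the loess correction 3 of 5 lay above it. Jarid2, an accessory subunit that helps bring PRC2 to its targets, had 18 tested peaks and the lowest ratio of the 5. Its signal was 3804 normalized reads in ablation and 4657 in control, a ratio of 0.82 (0.79 to 0.85). Its strongest peaks were all lower in ablation. A peak 139 kb into the gene (chr13:44869564-44870024) had 1164 normalized reads in ablation and 1422 in control, the peak at the start site had 632 in ablation and 758 in control, and a peak 3.23 kb further in had 599 in ablation and 781 in control. Of the 18 peaks, 14 were below 0 on the log2 scale and 4 above. The catalytic subunits are Ezh1 and Ezh2. Ezh1 had 344 normalized reads in ablation and 409 in control (log2 -0.25), Ezh2 in its single peak 641 and 679 (ablation, then control; log2 -0.08). Eed, which binds the mark PRC2 leaves, had 846 in ablation and 882 in control, and Suz12, the structural core subunit, 522 and 567. The intervals of Ezh2, Eed and Suz12 included no difference between the libraries, and that of Ezh1 included the median of all genes.

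The 8 PRC1 genes were divided evenly about the median of all genes, 4 above and 4 below, with Rnf2 and Cbx6 trading sides under the loess correction. Bmi1, a core PRC1 subunit that holds progenitor cells from senescence, had the lowest ratio of all 39 genes. Its only peak, at the start site whose promoter is printed above (chr2:18676420-18677631), had 285 normalized reads in ablation and 369.8 in control, a ratio of 0.77 (0.67 to 0.89). Pcgf2, the paralog of Bmi1 in the same position of the complex, had 387 in ablation and 400.1 in control at its start site. The catalytic subunits Rnf2 and Ring1 were close between libraries: Rnf2 had 452 in ablation and 483 in control, and Ring1 had 286 and 283.

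Among the CBX subunits, which read methylated histone H3, Cbx8 and Cbx2 stood apart although they are neighbours on chromosome 11. Cbx8 had 1319 normalized reads over 6 peaks in ablation and 1242 in control (log2 0.09), 517 and 457 of them at its start site (1.13-fold, 1.01 to 1.27). Cbx2 had 512 over 4 peaks in ablation and 598 in control (log2 -0.22), with 328 and 385 at its gene end (0.85-fold, 0.75 to 0.98). Cbx7, the CBX subunit linked to stem cell maintenance, had 567 in ablation and 608 in control over 4 peaks. One of these, in the gene body, was lower (198 in ablation, 253 in control) and another was higher (87.1 in ablation, 62.8 in control). Cbx6 had a single weak peak, with 46.3 in ablation and 43.0 in control, which it shares with the overlapping gene Npcd.

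Genes for DNA methylation lay near or slightly above the median of all genes, 3 of 4 as deposited and 4 of 4 under the loess correction. Dnmt3b and Dnmt3a set new methylation, Dnmt1 copies it at replication, and Uhrf1 brings Dnmt1 to newly copied DNA. Dnmt3b had 436 normalized reads in ablation and 406 in control (log2 0.10), Dnmt3a 686 and 671 (0.03), Dnmt1 1333 and 1324 (0.01), and Uhrf1 609 and 641 (-0.08). No interval of the 4 excluded a ratio of 1. Peaks within Dnmt1 went in both directions: the start-site peak whose promoter is printed above (chr9:20952218-20953105) had 397 in ablation and 327 in control (1.21-fold, 1.06 to 1.39), while a body peak had 48.1 in ablation and 70.6 in control. The same held for Dnmt3a, with a body peak of 68.9 in ablation and 41.6 in control and another of 118 in ablation and 193 in control.

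All 3 TET genes, whose products oxidise methylated cytosine, lay below the median of all genes, also under the loess correction. The counting interval lay wholly below that median for Tet3 alone as deposited, and for Tet2 alone under the loess correction. For Tet1 it included the median in both. Tet3 had 16 tested peaks with 2912 normalized reads in ablation and 3269 in control (log2 -0.17), Tet2 726 and 825 (-0.18), and Tet1 180 and 197 (-0.13). In Tet3 the strongest peak at a gene end or start, at a gene end, had 688 in ablation and 831 in control (0.83-fold, 0.75 to 0.91). The Tet3 peak over its RefSeq start had 427 in ablation and 433 in control. In Tet1, with 3 weak peaks, a body peak had 67.1 in ablation and 114 in control and another 54.4 in ablation and 28.2 in control. The start-site peak of Tet1 was close between libraries, with 58.0 in ablation and 54.3 in control.

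The deacetylase genes Hdac1, Hdac2 and Hdac3, whose products remove acetyl groups from histones within several repressor complexes, were all lower in ablation as deposited and 2 of 3 when scaled to reads in nuclear peaks, but Hdac3 lay above the median of all genes. Hdac2 had 618 normalized reads in ablation and 688 in control, and Hdac3 415 and 424 in a peak it shares with Rell2. The 2 gene-end peaks of Hdac1 went opposite ways: the strong one had 429.9 in ablation and 535 in control (0.80-fold, 0.72 to 0.90), the weak one at the other end 68.0 in ablation and 35.3 in control (1.93-fold, 1.33 to 2.82). For the sum, the ratio was 0.87 (0.78 to 0.97), an interval that included the median of all genes.

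Among the histone methyltransferases, Kmt2d was higher in ablation than in control, and Kmt2a, Kmt2c and Setd8 were lower, relative to the median of all genes, also under the loess correction. Kmt2d and Kmt2c methylate histone H3 at enhancers and Kmt2a at promoters, and Setd8 methylates histone H4. Kmt2d had 639 normalized reads in ablation and 524 in control, a ratio of 1.22 (1.10 to 1.35) and the highest of the 39 genes. All 4 of its peaks were higher in ablation: 273.9 and 244 (ablation, then control) at the far end, in a peak it shares with Prkag1, 206 and 162 at the start site (chr15:98871411-98872567), 117 and 81.2 at 1.4 kb, and 42.6 and 36.7 at 3.6 kb from the start. Kmt2c had 667 in ablation and 797 in control (0.84-fold, 0.76 to 0.92), almost all of it in its start-site peak. The Kmt2c interval lay wholly below the median of all genes as deposited, but not under the loess correction. Kmt2a had 634 in ablation and 719.8 in control (0.88-fold, 0.80 to 0.97), mainly in its start-site peak with 498 and 557. The interval of its sum included the median of all genes. Setd8 had 1318 in ablation and 1606 in control (0.82-fold, 0.77 to 0.88). Its 3 start-site peaks were not lower to the same degree, with 529 and 575 at the first start (log2 -0.12), 335 and 423 at 5.5 kb (-0.34) and 412 and 579 at 6.7 kb (-0.49, chr5:124446173-124447121), ablation before control in each.

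The histone demethylases had 1 gene above and 2 below the median of all genes, and 2 above and 1 below under the loess correction. Kdm6b, which removes the PRC2 mark, had strong peaks, 4 in number, with 2847 normalized reads in ablation and 3065 in control (0.93-fold, 0.89 to 0.97). The interval of this sum included the median of all genes as deposited and lay wholly above it under the loess correction. The strongest Kdm6b peak, at a gene end, had 1156 in ablation and 1201 in control, and the clearest difference was at a body peak with 763 in ablation and 918 in control. Kdm5b, which acts on active promoters, had 233 in ablation and 215 in control (log2 0.11), and its start-site peak is shared with Mgat4e. Kdm1a, a demethylase of repressor complexes, had 332 in ablation and 366 in control. In Kdm1a a body peak of 59.0 in ablation and 114 in control stood against a start-site peak of 192 in ablation and 176 in control.

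The acetyltransferase paralogs Ep300 and Crebbp are coactivators that acetylate histones at enhancers. Ep300 lay above the median of all genes, also under the loess correction, and Crebbp lay at it (log2 -0.07). Ep300 had 522 normalized reads in ablation and 447 in control in its start-site peak (chr15:81584934-81586656, 1.17-fold, 1.04 to 1.31). Crebbp had 452 in ablation and 475 in control over 5 peaks. Satb1, a genome organiser that folds the epidermal differentiation complex, was lower in ablation, with 521 against 651 in control (0.80-fold, 0.72 to 0.89). All 5 of its peaks were below 0. Its start-site peaks, chr17:51832093-51833346 and chr17:51812768-51813928, had 205 and 125 in ablation, against 265 and 164 in control.

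In all 6 remodelling genes the summed signal was lower in ablation as deposited, in 3 of 6 when scaled to reads in nuclear peaks, and 3 lay above and 3 below the median of all genes, as under the loess correction. The ATPases Smarca4 and Smarca2 are alternatives in the SWI/SNF complex, Arid1a and Arid1b are its alternative large subunits, Chd4 is the ATPase of the NuRD repressor complex, and Chd7 acts at enhancers. Chd4 had 407 normalized reads in ablation and 495 in control (0.82-fold, 0.73 to 0.93), with the whole difference at the start-site peak whose promoter is printed above (chr6:125095153-125096479, 290.2 in ablation, 382 in control). The other Chd4 peak, also counted as a start-site peak and centred 1.1 kb from the first start, had 117 in ablation and 114 in control. Smarca2 had 2211 in ablation and 2562 in control over 10 peaks, with 1092 (ablation) and 1359.8 (control) at its start site (chr19:26604403-26605502, 0.80-fold, 0.75 to 0.86). Smarca4 had 805 in ablation and 836 in control. Arid1a had 1578 in ablation and 1629 in control, Arid1b 5050.2 and 5156, and Chd7 2810 and 3173, ablation before control in each.

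Arid1b, Chd7, Jarid2, Tet3 and Smarca2 each had at least 10 tested peaks and together held 111 of the 224, so counts over peaks lean on them. Arid1b alone had 45, of which 23 were above 0 and 22 below. Its strongest peak, 195 kb from the first start, had 1040.3 normalized reads in ablation and 1107 in control, and its start-site peak 375 and 318 (1.18-fold, 1.03 to 1.35). In Chd7 14 of 22 peaks were below 0, among them the stronger peak at a gene end (333 in ablation, 397 in control) and a peak outside the gene with 444 in ablation and 562 in control. The weaker peak at that gene end was higher, with 122 in ablation and 97.4 in control.

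**Figure D2:**
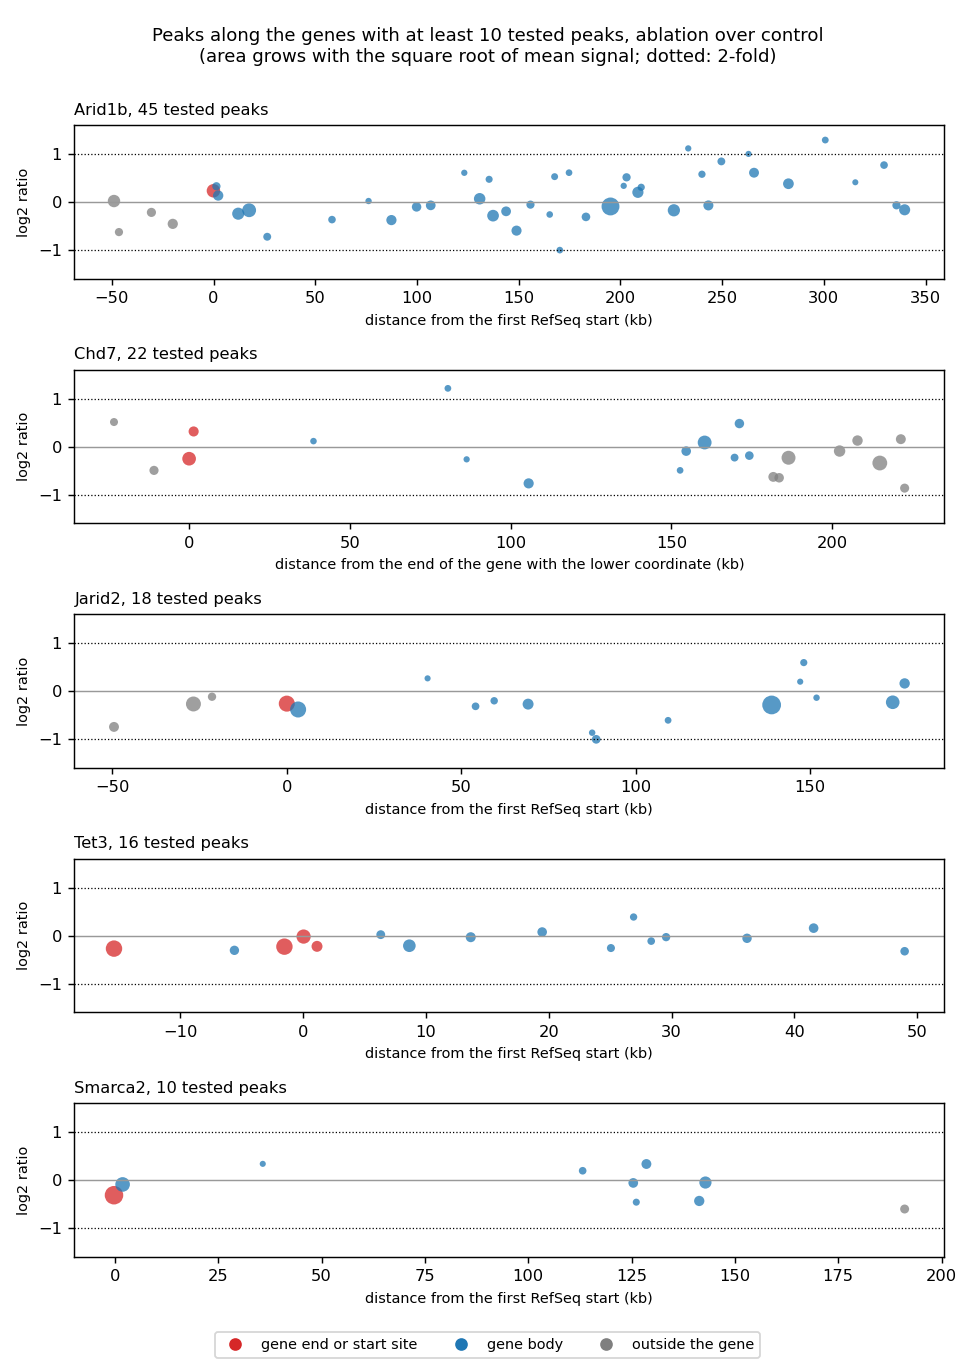
Log2 ratio of ablation over control for each tested peak of the 5 genes with at least 10, against the distance in kb from the first RefSeq start (for Chd7, from the end of the gene with the lower coordinate); the area of a point grows with the square root of its signal, colours mark gene ends or start sites, gene bodies and flanks, and dotted lines mark 2-fold. The strong peaks of Jarid2 and Smarca2 lie below 0 and the points past 2-fold are small ones in gene bodies.

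Of the 224 tested peaks, 4 (1.79%) reached 2-fold higher in ablation, beside 4.48% of all tested peaks, and 3 (1.34%) reached 2-fold lower, beside 1.88% of all. All 7 lay in gene bodies, and exons and introns were not told apart. The higher peaks were 3 in Arid1b and 1 in Chd7. In Arid1b they had 32.7 normalized reads in ablation and 12.7 in control (chr17:5295533-5296034, 2.57-fold, 1.42 to 4.81), 22.7 and 9.88 (chr17:5228169-5228683, 2.295-fold, 1.15 to 4.78), and 20.9 and 9.88 (chr17:5257975-5258169, 2.11-fold, 1.04 to 4.44). The Chd7 peak had 30.8 in ablation and 12.7 in control (chr4:8770594-8771144, 2.43-fold, 1.33 to 4.57). These rest on 23 to 36 reads in ablation and 14 to 18 in control.

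The 3 lower peaks were in Jarid2, Arid1a and Arid1b. The Jarid2 peak, 88.7 kb from the start, had 39.9 normalized reads in ablation and 81.2 in control (chr13:44819163-44819799, 0.49-fold, 0.34 to 0.70), from 44 and 115 reads. The Arid1a peak had 10.9 in ablation and 25.4 in control (chr4:133735376-133735618, 12 and 36 reads), and the Arid1b peak 13.6 in ablation and 28.2 in control (chr17:5165063-5165537, 15 and 40 reads). Nearest the threshold, the smallest log2 ratio inside was 1.01 and the largest outside 0.97, at a body peak of Dnmt3b. On the lower side the values were -1.001 inside and -0.93 outside, at the Kdm1a body peak described above. Dividing by reads in nuclear peaks brought the count to 7 higher and 1 lower, and the loess correction to 2 higher and 6 lower.

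The table lists its peaks in 3 runs over the genome, and what separates them is not stated. All 4 higher peaks stood in the first run, which holds 13 of the 224 and where 31.2% of all tested peaks reached 2-fold higher. Of the lower peaks, 2 stood in the second run, also with 13 of the 224 and with 16.1% of all its tested peaks at least 2-fold lower. In the third run, with 198 of the 224, 0 were at least 2-fold higher and 1 lower, beside 2.44% and 1.06% of all.

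Within 1 kb of the ends of genes, 0 of the 40 tested peaks passed 2-fold in either direction, beside 1.64% of all gene-end peaks higher and 0.334% lower. The median log2 ratio of these 40 peaks was -0.11, beside -0.07 over all 14673 gene-end peaks. For the other 184 peaks it was -0.06, beside 0.01 over all other assigned peaks. In all, 54 tested peaks lay at a gene end or a RefSeq start, so the 184 also hold start-site peaks, as at Kmt2d and Setd8. The 2 classes therefore do not separate promoters from other sites. The gene-end peaks of the regulators were strong, with a median signal of 387 normalized reads and a median length of 1211 bp, beside 227 reads and 926 bp for all gene-end peaks. In the 26 genes with both kinds of peak, the gene-end sum had the higher ratio in 12 and the lower ratio in 14.

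**Figure D3:**
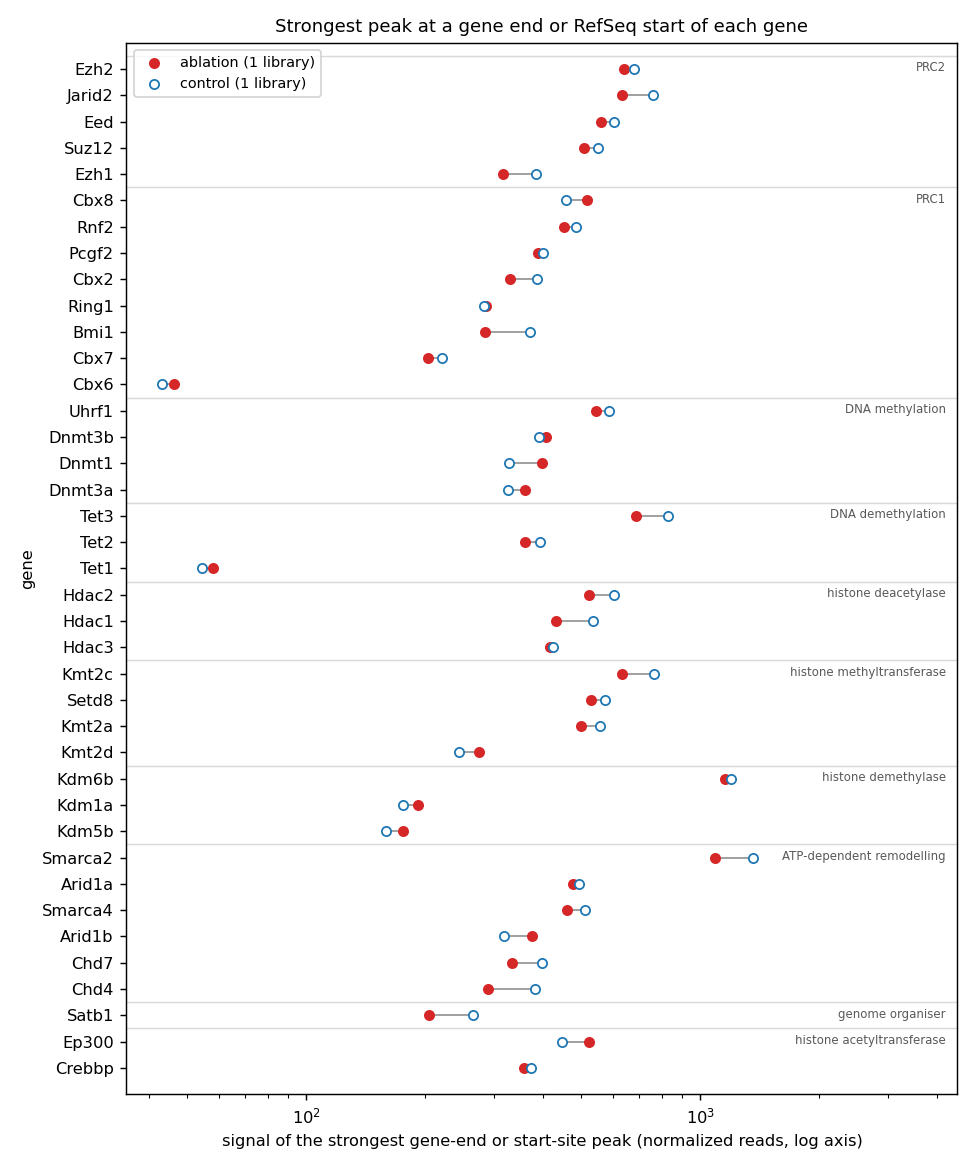
Signal in normalized reads (log axis) of the strongest peak at a gene end or RefSeq start of each gene, by role, in the ablation library (filled) and the control library (open). As deposited, the ablation value is the lower one in 27 of the 39 genes, from 290.2 against 382 at Chd4 to the close pairs of Pcgf2 and Hdac3. In 12 it is the higher one, with Dnmt1 at 397 against 327.

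For each gene the strongest peak at a gene end or RefSeq start was taken, at a start for 32 genes and at a gene end alone for 7. Of the 7, 5 (Chd7, Hdac1, Hdac3, Kdm6b and Cbx2) had no RefSeq start at hand. For these 5 a peak at the start could only be counted as a gene-end peak. The log2 ratios of the strongest peaks ran from -0.39 at Chd4 to 0.28 at Dnmt1, with a median of -0.11, beside -0.08 over all genes with such a peak. The interval lay below a ratio of 1 in 13 genes (33.3%), beside 29.7% of the 14145 genes with such a peak, and above it in 4 (10.3%), Dnmt1, Arid1b, Ep300 and Cbx8, beside 9.42%. Such peaks reached the median signal of all tested peaks in 37 genes and the strongest 10% in 21, with a median length of 1223 bp beside 595 bp for all tested peaks. The exceptions were Tet1 and Cbx6.

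As deposited, strongest peaks not yet given were lower in ablation in 11 genes and higher in 3. Among the Polycomb genes Ezh1 had 316 normalized reads in ablation and 383 in control, Eed 561 and 605, Suz12 506 and 552, and Cbx7 204 and 221, in the same order. Uhrf1 had 543 in ablation and 587 in control, Tet2 360.1 and 392, Hdac2 523 and 605, and Kmt2c 633 and 762. Smarca4 had 461 in ablation and 510.2 in control, Arid1a 475 and 493, and Crebbp 358 and 373. The 3 that were higher were Dnmt3a with 360.1 in ablation and 325 in control, Dnmt3b with 406 and 391, and Kdm5b with 176 and 159. Each of these 14 differed by less than 1.5-fold.

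Ratios moved with signal over the whole table, and the regulators held more strong peaks than the table did, 16.5% among its strongest 10% by signal. Among these the median log2 ratio of the 37 regulator peaks was -0.12, beside -0.18 for all. In the next 10% the values were -0.19 for 24 regulator peaks and -0.10 for all. In the weakest 10% they were 0.12 for 22 regulator peaks and 0.20 for all. Of the 224 peaks, 83.9% differed by less than 1.5-fold between the libraries, beside 79.5% of all tested peaks.

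**Figure D4:**
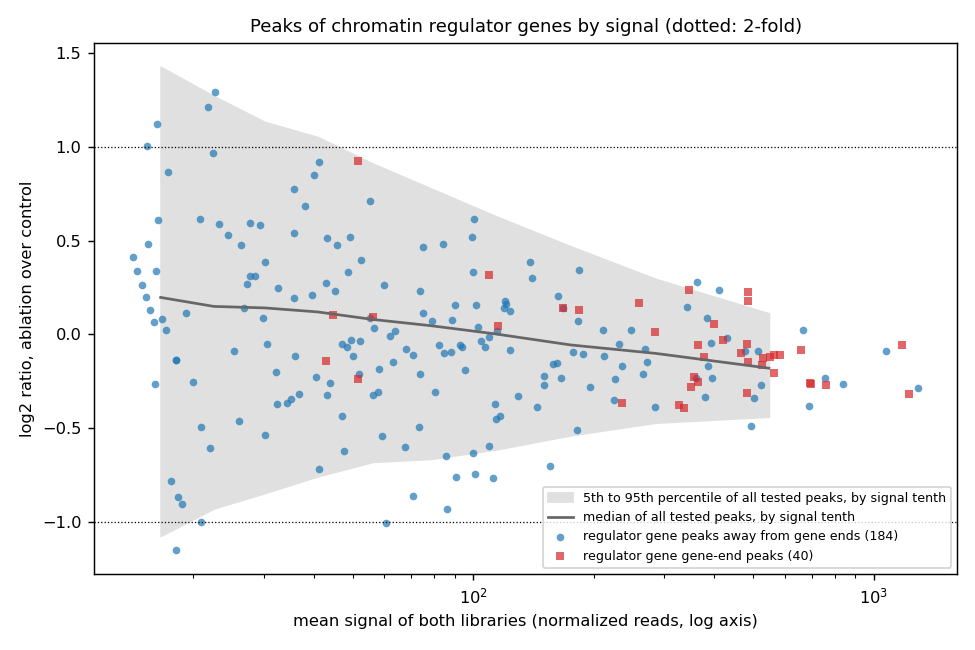
Log2 ratio of ablation over control against the mean signal of both libraries (normalized reads, log axis) for the 224 tested peaks, gene-end peaks as red squares and the others as blue points, over the 5th to 95th percentile (grey) and median (line) of all tested peaks in 10 bins by signal. Of the 7 peaks past 2-fold (dotted), 6 lie at the weak end and the Jarid2 peak near the middle, and the gene-end peaks lie mainly at the strong end near the falling median line.

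In 13 pairs of related or partner genes, the difference of log2 ratios was set against its counting interval, which took a normal form on the log scale. The interval excluded 0 in 5. How often it would do so over pairs of other genes was not tested. For single genes, the counting interval lay wholly above the median of all genes in 20.5% and wholly below it in 21.1% of all genes. Kmt2d stood above Kmt2c by 0.54 (0.34 to 0.74), Cbx8 above Cbx2 by 0.31 (0.13 to 0.49), Ep300 above Crebbp by 0.30 (0.06 to 0.53) and Smarca4 above Smarca2 by 0.16 (0.01 to 0.30), which under the loess correction was 0.07 (-0.07 to 0.22). For Bmi1 minus Pcgf2 the difference was -0.33 (-0.60 to -0.06). Pairs whose interval included 0 were Ezh2 minus Ezh1 at 0.17 (-0.07 to 0.40), which under the loess correction was 0.25 (0.02 to 0.48), Rnf2 minus Ring1 at -0.11 (-0.38 to 0.16), Dnmt3a minus Dnmt3b at -0.07 (-0.30 to 0.15), Hdac1 minus Hdac2 at -0.04 (-0.25 to 0.17), Arid1a minus Arid1b at -0.02 (-0.12 to 0.09), Chd4 minus Chd7 at -0.11 (-0.29 to 0.08), Dnmt1 minus Uhrf1 at 0.09 (-0.09 to 0.26) and Tet3 minus Tet2 at 0.02 (-0.13 to 0.16).

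A further 87 genes of the same complexes and enzyme families all had a tested peak. Their median log2 ratio was -0.13, beside -0.07 over all genes. As deposited, 68 were below 0 and 19 above, beside 61.6% of all genes below 0. Of the 87, 0 reached 2-fold, beside 1.19% of all genes higher and 0.418% lower. Of their 395 peaks, 2.53% reached 2-fold higher in ablation and 1.27% reached 2-fold lower, beside 4.48% and 1.88% of all tested peaks. Among those with at least 2 tested peaks, the highest included Dnmt3l, a cofactor of the de novo methyltransferases, with 198 normalized reads in ablation and 124 in control (1.59-fold, 1.30 to 1.95), and the PRC1 subunit Pcgf6 (log2 0.14). The lowest included the demethylases Kdm4c with 577 in ablation and 784 in control (log2 -0.44) and Kdm6a with 685 in ablation and 905 in control (-0.40). Kdm6a is on the X chromosome, whose tested peaks had a median of -0.10, beside -0.01 on the autosomes.

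**Figure D5:**
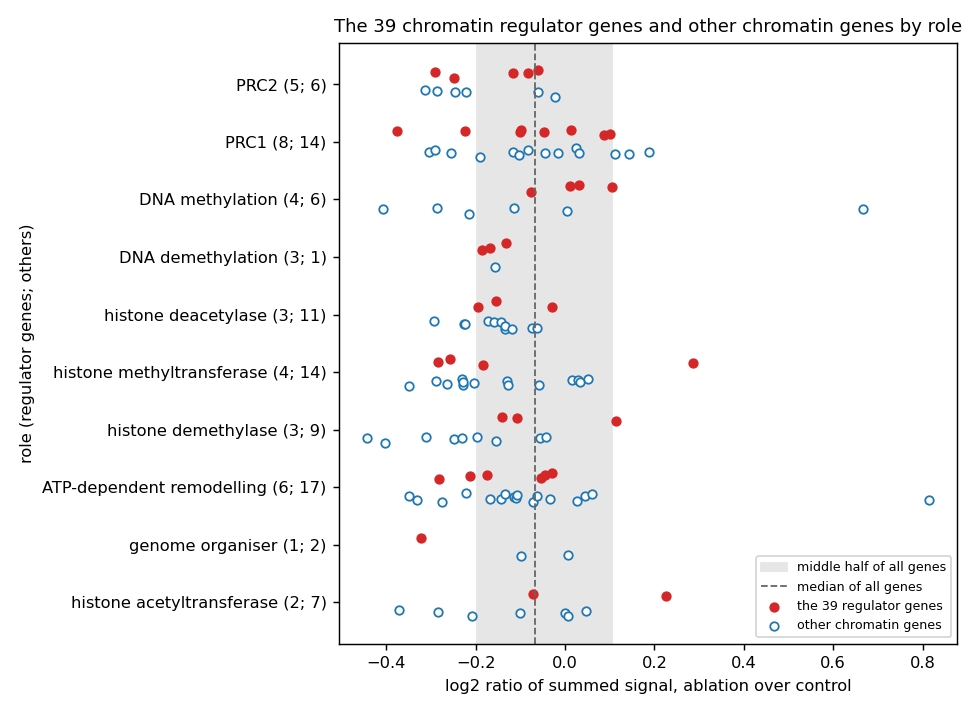
Log2 ratio of summed signal, ablation over control, for the 39 regulator genes (filled) and 87 other genes of the same families (open), by role, over the median of all genes (dashed) and their range from the 25th to the 75th percentile (grey). Kmt2d at 0.29 is the highest filled point and Bmi1 at -0.38 the lowest.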

How the data were processed

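The authors deposited 1 table of ATAC-seq signal per merged peak and library, normalized by a method not given in the sources used here, on build mm10. The tools named, without roles, are MACS2 2.1.0.20151222, HTSeq, Bowtie2 2.3.4.2, Trimmomatic and Picard, per the submitters' processing notes. How peaks were selected is not given in the sources used here. Samples were found by column name: the column for control has another number than the title of its sample, and the ablation column is named Exp. Columns left unused numbered 0. Every value was a whole multiple of 1 step per library (0.907 in ablation, 0.706 in control) within 0.01 of a read, so whole reads were recovered (100% of values).

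Repeated rows (116411 in all) were merged into 84594 peaks, and 3 mitochondrial peaks were left out. A count of 0 allows 2.72 normalized reads in ablation and 2.12 in control (3 reads). Log2 ratios of ablation to control used a pseudocount of 1, and peaks were tested from the 10th percentile of mean signal (13.96). The size criterion was 2-fold. Intervals are exact Clopper-Pearson intervals of recovered reads, and PCR copies are not independent molecules. Coordinates are as deposited, and whether starts count from 0 or 1 is not given in the sources used here. Genes, start sites and promoter sequences came from RefSeq tables of GRCm38.p6, the assembly behind mm10. Where a gene had several promoter windows in its peak, the one nearest the centre of the peak was printed. Named in full are the 5 highest and 5 lowest genes, every gene with a peak past 2-fold and each gene's strongest gene-end peak. Of the other chromatin genes, the 3 highest and 3 lowest with at least 2 tested peaks are named, except 2 that are not reported here. The genes, lists and rules were chosen with earlier results of these data known.

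The steps were tested on simulated reads. The software was matplotlib 3.10.9, statsmodels 0.14.6, scipy 1.17.1, pandas 2.3.3 and numpy 2.4.6 under Python 3.11.15. Alternatives covered the pseudocount, filter, scaling, window, gene-end distance, threshold and gene value.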

Additional observations from a re-analysis of the deposited data

Results flagged for a closer look

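The mitochondrial genome, which enters none of the comparisons, took 31.2% of the reads in peaks in the ablation library and 7.31% in the control library. The part of this difference in the ratios of the chromatin regulator genes was not tested beyond the scalings given below.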

How the results depend on the processing

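No paired analysis was possible because each group holds 1 library. The counts of peaks past 2-fold, 4 higher and 3 lower in ablation as reported, were 2 and 0 with a pseudocount of 5, 10 and 6 with no filter, 0 and 1 with a filter at the 25th percentile, and 17 and 19 at a threshold of 1.5-fold (higher, then lower). They were 0 and 13 when signal was scaled to all reads in the table, 7 and 1 when scaled to reads in nuclear peaks, 7 and 1 with ratios centred on strong gene-end peaks, 2 and 6 with the loess correction, and 0 and 1 in the third run of the table alone. The median log2 ratio of the 39 genes (-0.10) was -0.441, -0.0112, -0.0055 and 0.0044 under these 4 scalings in the same order, and -0.0689 as the median over the peaks of a gene. The gene-end median (-0.11) was -0.450, -0.0202, -0.0145 and 0.0415 under the 4 scalings. The median of the other peaks (-0.06) was -0.398, 0.0267 and 0.0324 under the first 3 and -0.07 under the loess correction. Against the median of all genes, the 39 genes stood at -0.03 under the first 3 scalings and -0.01 under the loess correction, so the shift of all genes makes up most of these moves by construction. For the counts the cause was not tested, apart from the fewer or more peaks that a filter leaves. A pseudocount of 0.5, windows of 5 kb or 0 kb, and peaks assigned to 1 gene only, an alternative chosen after seeing the data that leaves 37 genes, kept the counts at 4 and 3. Gene-end distances of 0.5 and 2 kb kept the gene-end median at -0.12 and -0.09. With gene-end peaks alone, the ratio of 5 of 35 genes left its counting interval, with peaks outside gene ends alone that of 10 of 30. Only the 26 genes with both kinds of peak could move in either setting. A gene with 1 kind of peak kept its value by construction. For counting intervals against the median of all genes and for pair differences, the loess correction was also chosen after seeing the data. Depth limits weak peaks most: at 14 to 36 reads a library, the upper bounds of the 4 higher peaks lie between 4.44-fold and 4.81-fold and their lower bounds between 1.04-fold and 1.42-fold.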
